A study of Mus musculus with 6 samples.

Results

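MHC class II molecules present peptides to CD4 T cells. The genes described here are the alpha and beta chains of the mouse I-A and I-E molecules (H2-Aa, H2-Ab1, H2-Eb1) and the related beta chain gene H2-Eb2, the invariant chain Cd74, the peptide-loading molecules H2-DMa and H2-DMb1 with their inhibitors H2-Oa and H2-Ob, and the transactivator Ciita. All 10 genes were found by gene name among the 34797 names of the array, with 13 of its 55681 probes. The members were chosen by their differences between miR-26a and control in these data. The values of that contrast, and of miR-26a against the sponge, which uses the same miR-26a arrays, are therefore only a description. Counts of probes past the threshold in them, and a lack of overlap between their groups, follow from the choice of members and test nothing.

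The cells were of 1676, a mouse pre-B cell line of the genotype SLP-65-/- LAT-/-, which all groups share, so none of them holds these adaptors of pre-BCR signalling. Every culture was kept in excess IL-7 taken from the supernatant of J558L cells that secrete it, and was selected with puromycin after retroviral transduction. The control group carried an empty vector, the miR-26a group a vector for hsa-miR-26a-2, and the sponge group a transcript with miR-26 binding sites that is meant to sequester the endogenous miR-26 family. There were 2 arrays per group, 1 from each of 2 experiments with separately generated cell clones, and the replicate numbers were taken to mark the experiment. A single cultured line was used, and a scrambled sponge was not analysed here. The questions were which transcripts differ when miR-26a is raised and which when it is sequestered.

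In antigen-presenting cells the invariant chain fills the groove of newly made class II molecules and guides them to the endosome, where it is cut down to a short peptide. H2-DM then exchanges that peptide for one derived from antigen, and H2-O restrains H2-DM. CIITA does not bind DNA itself but is recruited to promoters of this family by a complex of RFX, NF-Y and CREB on the X and Y boxes. Class II levels are known to be low in mouse B cell precursors and to rise as B cells mature.

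The microRNA that was raised and its relative are shown first, since they share the part that pairs with a target. The mature sequences were taken from RefSeq (GRCm38.p6) and the seed, bases 2 to 8, is in capitals.
mmu-miR-26a-5p: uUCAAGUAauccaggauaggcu
mmu-miR-26b-5p: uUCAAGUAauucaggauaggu
The first is encoded at chr9:119031811-119031832 and at chr10:126995543-126995564, the second at chr1:74394324-74394344, all on the plus strand. Both carry the seed UCAAGUA. None of the 13 member probes, each of at most 60 bases, contains a 7-base match to this seed. A probe covers only a small piece of its transcript, so this says nothing of the rest.

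The promoters are shown for the boxes that the class II genes are known for. RefSeq promoters (GRCm38.p6, 250 bases before the start of the gene to 50 after it) were used for 7 of the 10 members. Below are bases 140 to 31 before the start of 6 of them, 5′ to 3′ on the strand of the gene. Capitals mark the Y box core ATTGG on either strand, the X box pattern AACNNATG and the CREB site TGACGTCA.
H2-Oa, chr17:34092239-34092348, plus strand: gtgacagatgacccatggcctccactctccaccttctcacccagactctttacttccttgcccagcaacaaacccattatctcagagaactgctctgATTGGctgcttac
H2-DMb1, chr17:34153051-34153160, plus strand: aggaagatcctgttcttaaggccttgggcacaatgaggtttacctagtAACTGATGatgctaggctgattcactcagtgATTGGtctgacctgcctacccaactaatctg
H2-Ob, chr17:34238765-34238874, plus strand: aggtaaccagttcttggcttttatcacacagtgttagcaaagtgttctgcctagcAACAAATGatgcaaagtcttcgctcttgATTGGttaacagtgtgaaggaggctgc
H2-Aa, chr17:34287854-34287963, minus strand: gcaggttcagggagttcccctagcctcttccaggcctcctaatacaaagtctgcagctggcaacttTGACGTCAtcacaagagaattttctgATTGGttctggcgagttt
H2-Eb1, chr17:34305727-34305836, plus strand: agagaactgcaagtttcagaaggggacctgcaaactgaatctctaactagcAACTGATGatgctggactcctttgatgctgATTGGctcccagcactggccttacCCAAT
H2-Eb2, chr17:34325535-34325644, plus strand: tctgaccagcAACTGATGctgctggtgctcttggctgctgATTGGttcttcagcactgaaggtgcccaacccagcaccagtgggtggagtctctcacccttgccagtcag
All 7 genes held ATTGG within the 300 bases, as did 37.4% of the 32851 promoters in the table. For H2-DMa it lay in 1 of 2 promoter entries, at position -198 from the start. The X box pattern was written after these sequences had been seen and lay in 4 of the 7 genes and in 8.86% of all promoters. In those 4 genes, between 20 and 23 bases separated it from the Y box core. The CREB site was found in H2-Aa and in 1.79% of all promoters. A match is a description of letters and not of a bound factor.

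Between 28823 and 29800 of the 59305 spots on an array were well above background and none was saturated, and 20168 probes were bright enough to be tested. Levels are given as the log2 of the quantile-normalized processed signal. They compare 1 probe across arrays and do not compare probes with each other. The pre-B cell genes Vpreb1, Igll1 and Cd79b were well above background on every array, and none of them passed the test in either contrast with the control. Rag1 and Dntt, also on the list of pre-B cell markers used here, were called lower with miR-26a, as given below.

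**Figure D1:**
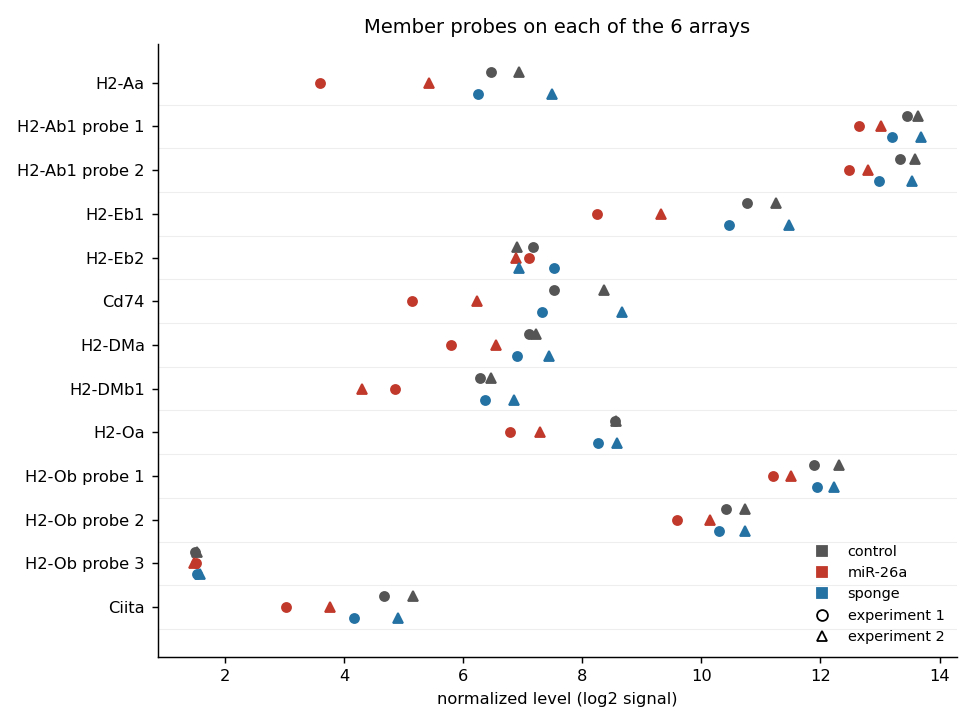
Normalized log2 level of each of the 13 member probes (rows) on each array, with colour for the group and a circle or triangle for experiment 1 or 2. The miR-26a arrays lie below all control and sponge arrays for every probe except H2-Eb2 and H2-Ob probe 3, which was not above background on any array. The members were chosen on these arrays, so this lack of overlap is a description. Its share over all tested probes was not counted.

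With miR-26a, the chains of the classical class II molecules were lower than in the control on both arrays. H2-Eb1, the I-E beta chain, read 10.77 and 11.25 in the control, 8.25 and 9.33 with miR-26a and 10.47 and 11.47 with the sponge. Both miR-26a arrays lay below all 4 others, and the difference from the control was -2.22 on the log2 scale (SE 0.15), a level 4.65-fold lower. H2-Aa, the I-A alpha chain, read 6.46 and 6.93 in the control, 3.59 and 5.43 with miR-26a and 6.25 and 7.49 with the sponge. Its difference was -2.18 (SE 0.3), with no overlap between miR-26a and the other groups. On the first of the miR-26a arrays the H2-Aa probe was not well above background, so that value is only a bound.

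H2-Ab1, the I-A beta chain, had 2 probes that share 51 of their positions and so are nearly the same measurement. The brighter read 13.45 and 13.63 in the control, 12.65 and 13.02 with miR-26a and 13.2 and 13.69 with the sponge. The difference from the control was -0.71 (SE 0.09), a 1.63-fold lower level, and -0.82 (SE 0.1) for the second probe. The miR-26a arrays were again below all others for both probes.

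H2-Eb2, a beta chain gene beside H2-Eb1, was the exception. It read 7.18 and 6.9 in the control, 7.1 and 6.89 with miR-26a and 7.53 and 6.93 with the sponge. The miR-26a values lay within the range of the control and sponge arrays or, at 6.89, just under its lower end of 6.9, and the difference from the control was -0.04 (SE 0.11, 95% interval -0.31 to 0.23). Its promoter, printed above, carries both the X box pattern and the Y box core.

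Cd74, the invariant chain, read 7.53 and 8.36 in the control, 5.14 and 6.23 with miR-26a and 7.33 and 8.67 with the sponge. Both miR-26a arrays lay below the other 4, and the difference from the control was -2.25 (SE 0.13), a 4.77-fold lower level. The probe lies on chromosome 18 (mm9, 60972075 to 60972132), apart from the class II region of chromosome 17 that holds 8 of the other members.

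Of the peptide loaders, H2-DMb1, the beta chain of H2-DM, read 6.29 and 6.47 in the control, 4.85 and 4.3 with miR-26a and 6.36 and 6.85 with the sponge. H2-DMa, the alpha chain, read 7.1 and 7.22 in the control, 5.79 and 6.56 with miR-26a and 6.91 and 7.44 with the sponge. For either chain both miR-26a arrays lay below all control and sponge arrays, while control and sponge overlapped, and the differences of miR-26a from the control were -1.8 (SE 0.24) for H2-DMb1 and -0.99 (SE 0.15) for H2-DMa. A further probe, described on the array as H2-DMb1 but named only by a transcript identifier, falls outside the gene name rule. It was not well above background on any array.

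H2-Oa, the alpha chain of the inhibitor H2-O, read 8.55 and 8.57 in the control, 6.78 and 7.29 with miR-26a and 8.26 and 8.59 with the sponge, a difference of -1.52 (SE 0.12) between miR-26a and control. H2-Ob, its beta chain, had 2 probes above background. The brighter read 11.9 and 12.31 in the control, 11.21 and 11.51 with miR-26a and 11.94 and 12.22 with the sponge. Its difference was -0.74 (SE 0.07), and that of the second was -0.71 (SE 0.08), with no overlap between the miR-26a arrays and the others. The remaining H2-Ob probe was not well above background on any array.

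Ciita, the transactivator of the family, was dim. Its probe (mm9, chr16:10526568-10526627) read 4.67 and 5.15 in the control, 3.02 and 3.76 with miR-26a and 4.17 and 4.91 with the sponge. It was well above background on the 4 control and sponge arrays and on neither miR-26a array. With miR-26a the group mean was 2.86-fold lower than in the control and 2.21-fold lower than with the sponge. These folds rest on miR-26a readings near background and carry no error, so they are no firm lower limit. Within experiments 1 and 2, the readings with miR-26a were lower than in the control by 1.65 and 1.39. The processed signal was under 50 on all 6 arrays, so the probe was not tested. The array has 2 other probes for Ciita that carry only a transcript identifier and fall outside the gene name rule. These were picked after their values had been seen. The first read 4.81 and 4.72 in the control, 3.73 and 4.57 with miR-26a and 4.45 and 5.49 with the sponge, and the second 6.23 and 6.33, 6.46 and 6.24, and 6.25 and 5.99. The first was lower with miR-26a than in the control by 1.09 in experiment 1 and 0.15 in experiment 2. The second, which was tested, differed by 0.07 (SE 0.11). The Ciita probes thus differed among themselves.

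Of the 13 member probes, 11 were tested, and 10 of these, from 8 genes, were lower with miR-26a than in the control at an adjusted p under 0.05 in limma, against 5.14% of all tested probes lower and 4.5% higher. This count only restates how the members were chosen and is no test of them. H2-Aa and H2-DMb1 passed the filter on signal only through the control and sponge arrays, since their signals were under 50 on both miR-26a arrays, and Cd74 exceeded 50 on 1 of these arrays. The number of tested members thus depends in part on where they are high. When the experiment was not used as a block, 2 of the 11 were called, and without control replicate 1 it was 3. After a normexp background correction, which raises dim values, the difference was -0.92 for H2-Aa, -0.72 for H2-DMb1, -0.61 for H2-DMa and -1.48 for Cd74. In RNA of whole cultures, fewer cells that express class II genes and less RNA per cell cannot be told apart.

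**Figure D2:**
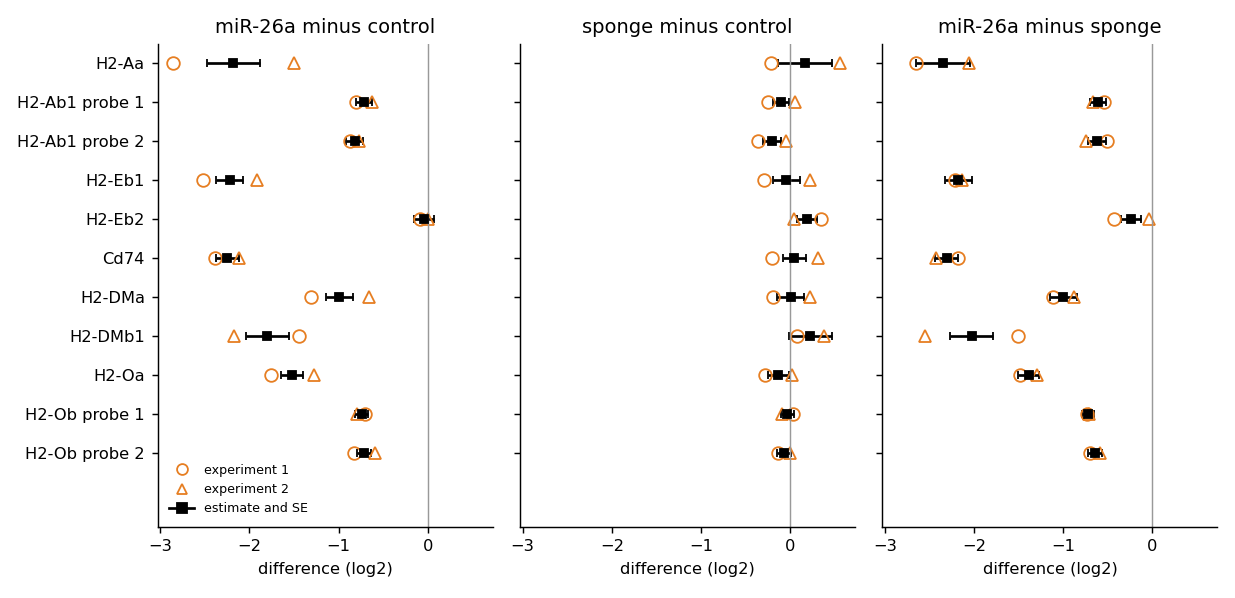
Log2 difference for the 11 tested member probes in each pair of groups. Squares with bars are limma estimates with their SE, and open circles and triangles the differences within experiment 1 and experiment 2. For miR-26a minus control, the 10 probes other than H2-Eb2 lie clearly left of 0 in both experiments, which follows from the choice of members. H2-Eb2 lies at -0.08 in experiment 1 and close to 0 in experiment 2. For sponge minus control the estimates lie between -0.2 and 0.23.

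The size of the difference varied between the experiments. H2-DMa was lower with miR-26a by 1.31 in experiment 1 and 0.66 in experiment 2. H2-DMb1 went the other way, with 1.44 and 2.17. For H2-Aa only experiment 2 gave a measured difference, of 1.5, since its probe was not well above background on the miR-26a array of experiment 1. Cd74 was nearly alike in both, at 2.39 and 2.12. Apart from the vectors, the members also shared a shift between experiments. Of the 11 tested probes, 10 were higher in experiment 2 than in experiment 1 in the control, 9 with miR-26a and 10 with the sponge, with median differences of 0.23, 0.51 and 0.49. Over all tested probes, 46%, 50.3% and 47.6% were higher in experiment 2. The experiment coincided with the row of the slide, so these cannot be told apart. The group likewise coincided with the column of the slide (1 for control, 2 for miR-26a and 4 for the sponge). Group and column therefore cannot be told apart in any contrast between groups.

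The probes moved together across the 6 arrays. Among the 45 pairs of tested member probes without H2-Eb2, Pearson's r had a median of 0.968 (0.777 to 0.998). Over the 10 pairs with H2-Eb2 it ran from -0.254 to 0.226. The 6 points of each pair share the arrays, the groups and the experiments, and a choice of members by the same contrast raises r, so these values are a description only.

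Sequestering miR-26 was not followed by a difference in these genes that could be detected. The sponge shares its control arrays with the comparison above. None of the 11 tested member probes passed an adjusted p of 0.05 in limma, and none had an unadjusted p under 0.05. Over all tested probes, 0.0% were called lower and 0.00992% higher (2 probes), and at an unadjusted p under 0.05 the shares were 8.72% and 7.38%. The median difference of the members from the control was -0.03, and 6 of the 11 lay below 0, against a median of 0.0 for all tested probes.

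Intervals show what these arrays leave possible. For Cd74 the sponge minus control difference was 0.05 (95% interval -0.26 to 0.37, adjusted p = 0.859 in limma), and for H2-Eb1 it was -0.04 (-0.42 to 0.34, adjusted p = 0.922). H2-Aa, the least precise, had 0.17 (-0.57 to 0.92, adjusted p = 0.798). The second H2-Ab1 probe had the smallest p among the members, with -0.2 (-0.44 to 0.04, adjusted p = 0.374). Within experiments, Cd74 differed by -0.2 and 0.31 and H2-Eb1 by -0.29 and 0.22, that is, in opposite directions. A p that misses the threshold does not show that control and sponge were alike.

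Set against the sponge, the miR-26a arrays gave much the same values as against the control, and the miR-26a arrays are shared by both. The differences were -2.31 (SE 0.13) for Cd74, -2.35 (SE 0.3) for H2-Aa, -2.18 (SE 0.15) for H2-Eb1, -1.39 (SE 0.12) for H2-Oa and -2.03 (SE 0.24) for H2-DMb1. H2-Eb2 had -0.24 (SE 0.11). At an adjusted p under 0.05 in limma, 10 of 11 were lower, where 8.49% of all tested probes were lower and 8.28% higher. As the members were chosen by their low values on these miR-26a arrays, nothing is read from this count.

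**Figure D3:**
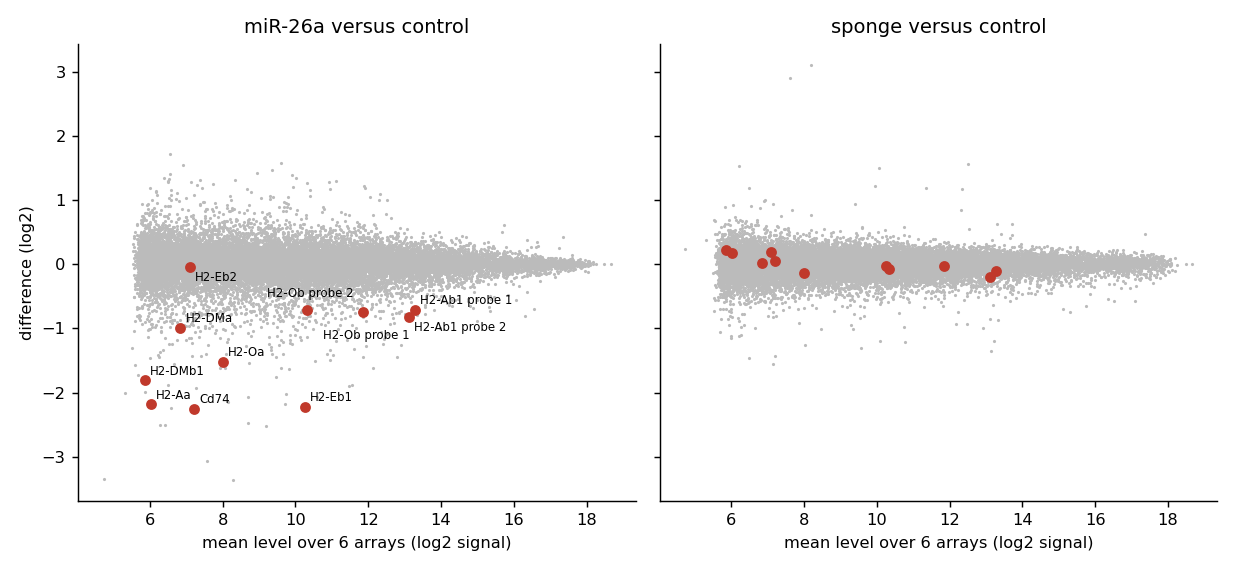
Log2 difference from the control against the mean log2 level over the 6 arrays for all 20168 tested probes (grey) and the 11 tested member probes (red), for miR-26a on the left and the sponge on the right. With miR-26a, Cd74, H2-Eb1, H2-Aa, H2-DMb1, H2-Oa and H2-DMa lie below the 1st percentile of all probes, which is -0.84, while all member probes lie between -0.48 and 0.41, the 1st and 99th percentiles, with the sponge.

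The class II region of chromosome 17 also holds genes that are not class II genes, and these give a view of the same stretch of chromosome. From H2-Oa to Btnl2 (mm9, chr17:34232033-34506420) it has 16 genes with a probe here. Between H2-DMb1 and H2-Ob lie Psmb9, Tap1, Psmb8 and Tap2, which supply peptides to class I molecules. With miR-26a they differed from the control by 0.01 (adjusted p = 0.963) for Psmb9, -0.31 (adjusted p = 0.0477) for Tap1, 0.07 (adjusted p = 0.564) for Psmb8 and 0.08 (adjusted p = 0.674) for Tap2, all in limma. Brd2, a chromatin protein encoded between H2-Oa and H2-DMa, differed by 0.02 (adjusted p = 0.889). Only Tap1 of these 5 thus passed the test, by a smaller amount than any of the 10 member probes called lower. Its call was lost without the block, without any 1 of the arrays and with scaling to the 75th percentile. With the sponge, Tap1 differed from the control by nearly as much, -0.29 (SE 0.07, adjusted p = 0.221 in limma), and did not pass. Between miR-26a and the sponge it differed by -0.02 (adjusted p = 0.893 in limma). Both differences from the control use the same control arrays, and whether the lower level of Tap1 was particular to miR-26a was not tested.

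H2-Ea-ps, named on this array as an I-E alpha chain pseudogene, read 4.7 and 4.85 in the control, 1.49 and 2.24 with miR-26a and 4.81 and 5.01 with the sponge. It was well above background on the control and sponge arrays only. By group means it was 7.49-fold lower with miR-26a than in the control, a value without an error and no firm lower limit. Within experiments 1 and 2 the difference was -3.21 and -2.61. H2-Ea-ps is dim and was not tested. H2-DMb2, the second H2-DM beta chain gene, was not well above background on any array. Btnl2, at the end of the region, was dim and not tested. It differed from the control by -0.58 and -0.44 with miR-26a in experiments 1 and 2, and by -0.43 and -0.01 with the sponge.

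**Figure D4:**
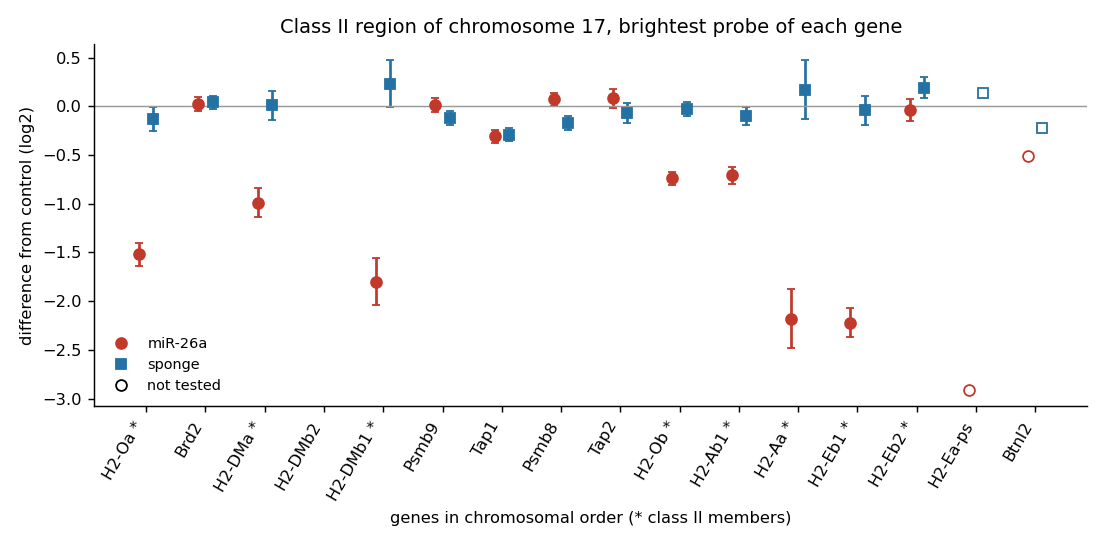
Log2 difference from the control for the genes of the class II region in chromosomal order, by the brightest probe of each (red circles miR-26a, blue squares sponge, bars the SE in limma, open symbols probes that were not tested). Psmb9, Psmb8, Tap2 and Brd2 lie between -0.17 and 0.08 in both contrasts, and the class II members other than H2-Eb2 between -2.22 and -0.71 with miR-26a.

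The neighbours of Ciita and Cd74 on other chromosomes were measured as well. Dexi and Clec16a, encoded beside Ciita, differed from the control by 0.02 (adjusted p = 0.925) and 0.03 (adjusted p = 0.848) with miR-26a. Socs1, a cytokine signalling inhibitor encoded near them, differed by -0.38 (adjusted p = 0.0532). Beside Cd74, Tcof1 differed by 0.06 (adjusted p = 0.668) and the ribosomal protein gene Rps14 by 0.02 (adjusted p = 0.918), all in limma. Across all 13 tested probes of neighbouring genes, 1 was lower and 0 higher with miR-26a, and none passed with the sponge. Of all tested probes, 5.14% were lower and 4.5% higher with miR-26a.

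Among the factors that control class II transcription, 2 of 19 tested probes were lower with miR-26a than in the control and none was higher. Over all tested probes, 5.14% were lower and 4.5% higher. Rfxank, a subunit of the RFX complex that binds the X box, read 10.59 and 10.69 in the control, 10.03 and 10.09 with miR-26a and 10.59 and 10.75 with the sponge. It fell by 0.58 (SE 0.07, adjusted p = 0.0107 in limma) and was lower on both arrays than on any other. Irf4, an interferon regulatory factor of B cells, read 11.44 and 11.69 in the control, 10.24 and 10.51 with miR-26a and 11.19 and 11.69 with the sponge. It fell by 1.19 (SE 0.09, adjusted p = 0.00481 in limma), also without overlap. Both calls were lost without the block for experiment (differences of -0.58 and -1.19 as before) and without control replicate 1, and that of Rfxank also without control replicate 2.

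Against the control, the other RFX subunits did not pass the test with miR-26a, with differences of 0.09 (adjusted p = 0.484) for Rfx5 and 0.06 (adjusted p = 0.646) for Rfxap. Neither did the NF-Y subunits Nfya, Nfyb and Nfyc, which bind the Y box, at 0.19 (adjusted p = 0.15), -0.11 (adjusted p = 0.417) and -0.08 (adjusted p = 0.503). Irf8 had 0.12 (adjusted p = 0.438) and Irf1, which drives Ciita after interferon, -0.12 (adjusted p = 0.377), all in limma. Prdm1, a repressor of Ciita in plasma cells, had -0.05 (adjusted p = 0.724). None of the list passed between sponge and control, where Rfxank had 0.03 (95% interval -0.14 to 0.2) and Irf4 -0.13 (-0.35 to 0.09). Between miR-26a and the sponge, 3 of the 19 tested probes were lower and 2 higher, against 8.49% and 8.28% of all tested probes. The higher ones were Rfx5 at 0.32 (adjusted p = 0.0359) and Nfya at 0.5 (adjusted p = 0.0106), both in limma.

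**Figure D5:**
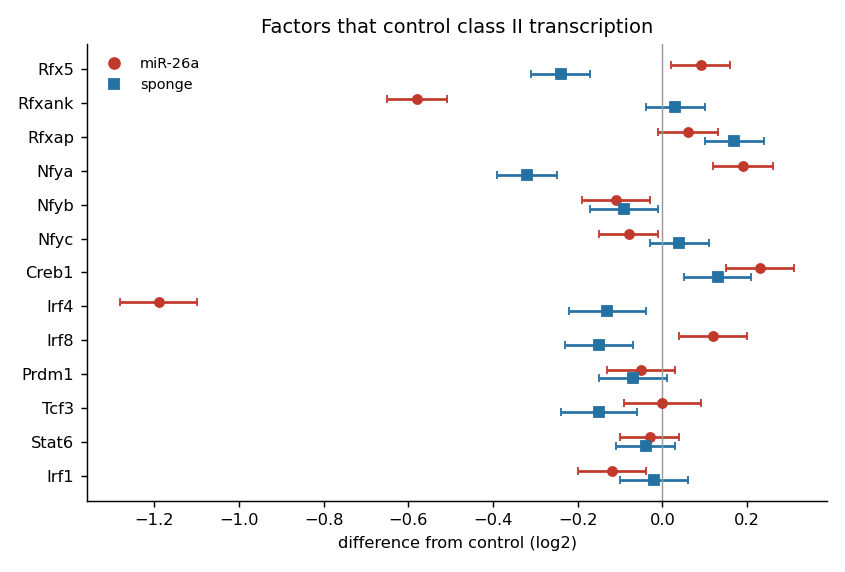
Log2 difference from the control, with its SE in limma, for the brightest probe of each tested gene that controls class II transcription (red circles miR-26a, blue squares sponge). Irf4 and Rfxank fell with miR-26a by 1.19 and 0.58, and no gene shown passed the test with the sponge.

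Of 8 tested probes of genes that make peptides for class II molecules or set their turnover, 1 was lower and 1 higher with miR-26a, and 6 did not pass, where 5.14% of all tested probes were lower and 4.5% higher. Ifi30, a thiol reductase of the endosome, fell by 0.53 (SE 0.08, adjusted p = 0.02 in limma), and Lgmn, an endosomal protease, rose by 0.46 (SE 0.07, adjusted p = 0.02). Both calls were lost without the block and without control replicate 1, control replicate 2 or miR-26a replicate 2. Ctss, the protease that trims the invariant chain, had -0.17 (adjusted p = 0.339). March1 and March8, ubiquitin ligases that remove class II molecules from the surface, had 0.14 (adjusted p = 0.623) and 0.37 (adjusted p = 0.0635). Of the 7 tested probes of co-stimulatory and surface genes none passed, and Cd72 and Cd1d1, with the brightest probes, had -0.18 (adjusted p = 0.171) and -0.03 (adjusted p = 0.882).

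Markers of cells with high class II levels were looked at in the same arrays. Of the 9 dendritic cell genes, 5 were not well above background on any array, among them Itgax, Clec9a and Xcr1, and of the 10 myeloid genes with a probe 3 were not. The processed signal summed over the dendritic cell list ran from 51903 to 55465 in the control, 53317 to 56063 with miR-26a and 54037 to 62921 with the sponge. Nearly all of it came from 1 probe of Siglech, a gene of plasmacytoid dendritic cells. A further Siglech probe was not well above background on any array, and another was dim and not tested. Without the bright probe, left out after its values had been seen, the sum ran from 279 to 288, 137 to 147 and 296 to 342. For the myeloid list it ran from 4073 to 4948, 4301 to 4807 and 3512 to 5362, and without the brightest Itgam probe from 1103 to 1115, 1007 to 1116 and 900 to 1133. Within these lists Ccr7, a chemokine receptor of dendritic and B cells, fell by 2.51 with miR-26a (SE 0.1, adjusted p = 0.00158 in limma). Its signals were 153 and 134 in the control, 23.5 and 25.5 with miR-26a and 172 and 175 with the sponge. It thus passed the filter on signal only through the control and sponge arrays. Most of the fall in the dendritic cell sum without the bright Siglech probe came from this 1 Ccr7 probe. Cd68, a lysosomal protein of macrophages, rose by 0.33 (SE 0.07, adjusted p = 0.042), a call that was lost without the block and without any 1 of the arrays. With normexp the difference of Ccr7 was -1.23. A dimmer probe of Itgam was called lower as well, while its brightest probe had 0.06 (adjusted p = 0.745).

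The counts for the lists below stand beside 5.14% of all tested probes lower and 4.5% higher with miR-26a. In the pre-B list 2 of 13 tested probes were lower with miR-26a, and none was higher. These were Rag1, the recombinase, which fell by 2.47 (SE 0.2, adjusted p = 0.00554 in limma), and Dntt, which adds untemplated nucleotides, which fell by 1.12 (SE 0.09, adjusted p = 0.00549), and both calls were lost without control replicate 1. In the mature B cell list 2 of 4 tested probes were higher, both of the complement receptor gene Cr2, which rose by 1.18 (SE 0.07, adjusted p = 0.00313) with its brighter probe. Ms4a1, which encodes CD20, was not well above background on any array. Among T cell genes none of 3 tested probes passed, and Lck and Cd4 had -0.44 (adjusted p = 0.117) and -0.03 (adjusted p = 0.865), where Lck passed without miR-26a replicate 2 (-0.66). None of these lists held a call with the sponge, and their part in the class II values was not tested.

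Other transcripts followed the same pattern over the 6 arrays. Among the 1253 tested probes of other annotated genes whose group means spanned at least 0.5, those closest to Cd74 by Pearson's r were Ndc80 (0.999), E2f2 (0.994), Klhl24 (0.994), 1700048O20Rik (0.994) and Tifa (0.993). Their own differences between miR-26a and control were smaller than that of Cd74, from -0.79 for 1700048O20Rik to -0.47 for E2f2. By the same measure Cox6a2, Adamts7, Cmah, Mxd4 and Neil1 came closest to the Ciita probe, but with miR-26a the Ciita probe read too close to background on both arrays, so their order is not a likeness of measured levels. With only 6 arrays of 3 groups, many probes reach such values.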

How the data were processed

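Total RNA was hybridized to 1-colour Agilent mouse arrays. The authors deposited the scanner output of 6 arrays (Agilent Feature Extraction, version 10.7.1.1 per the submitters' processing notes and 10.7.3.1 per the file headers), which gives the intensity of each spot after background subtraction (the processed signal), and a table of processed intensities. The table is on a linear scale with a median of 12.29 in each column, and its log2 values correlate with those of the processed signals at 1 per array after rounding. The authors' methods describe quantile normalization. Every column was assigned to a sample, and groups and replicate numbers came from the labels.

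Here the processed signals of non-control spots were quantile-normalized and put on the log2 scale, and unflagged spots of a probe were averaged (0 to 7 probes per array had only flagged spots and kept their values). A probe was tested if at least 1 array had it well above background and its signal exceeded 50 on at least 4. The 6 arrays were fitted together in limma 3.58.1 (R 4.3.3), with experiment as a blocking term and Benjamini-Hochberg adjustment over 20168 probes. All arrays came from 1 slide and 1 scan. Deviations from the group means were correlated between arrays with the same number (r = 0.379 between control and miR-26a, 0.588 between control and sponge, 0.454 between miR-26a and sponge), and the design text speaks of 2 independent experiments. The titles of the control samples quote other accessions, so the controls may come from an earlier series. The p-values measure the spread between these few cultures, and the number of arrays limits the precision. Some probes were not well above background on any miR-26a array. There the higher of the probe's own level and the lowest level well above background on the array was used. A fold from these group means carries no error and is no firm lower limit.

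The members and the gene lists were chosen with earlier results of these data known. From each list, up to 4 genes whose brightest probe had an adjusted p under 0.05, or else the brightest 2, were to be named. Further list genes named beside them were chosen after their values were seen. Some genes of the lists are not reported here. Gene names and coordinates (mm9) came from the array files. All 10 members matched RefSeq by symbol. Sequences are from RefSeq (GRCm38.p6). The fit was tested on simulated data. Alternatives were the fit without the block, a 75th percentile scaling, a normexp correction (offset 50), the authors' values, other filters, an unpaired t-test as in a legend of the study, and leaving out each array. Tables were made with python 3.11.15, numpy 2.4.6 and pandas 2.3.3 and plots with matplotlib 3.10.9.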

Additional observations from a re-analysis of the deposited data

How the results depend on the processing

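The miR-26a versus control difference of the 10 member probes called lower kept its sign under all 14 alternatives that could be fitted, and so did miR-26a versus sponge. The estimate cannot change without the block, with other filters, in the unpaired t-test or without an array outside the contrast. The sign against the control is also that of the contrast that chose the members, so its persistence tests nothing. H2-Aa could not be fitted under the filter on all 6 arrays. The number of calls depended on the settings. Without the replicate block, which pairs arrays by experiment, 2 of the 11 member probes (H2-DMb1 and H2-Oa) were called in miR-26a versus control and 2 in miR-26a versus sponge, 311 and 997 of all probes, and 6 and 7 of the listed genes' probes. With no filter and with the unpaired t-test the counts were 0 in each of these. Leaving out each array gave 3 to 10 member probes against the control, with 3 without control replicate 1 (H2-Eb1, Cd74 and H2-Oa), 5 without control replicate 2 and 8 without either sponge array. Against the sponge it gave 3 to 10, with 4 without sponge replicate 1 and 3 without sponge replicate 2. Over all probes it gave 66 to 1584 calls for miR-26a versus control (1944 with all arrays), 445 to 2401 for miR-26a versus sponge (3382) and 0 to 35 for sponge versus control (2), and over the lists' probes 2 to 10 (12), 6 to 12 (13) and 0. For sponge versus control, all probes gave 4 calls when scaled to the 75th percentile, 36 with normexp, 10 with a signal above 50 on at least 2 arrays and 0 with no filter or the t-test. No member probe was called there under any alternative. Some differences that were not called changed sign. Scaled to the 75th percentile, sponge versus control was 0.01 for H2-Eb1, -0.01 for H2-DMa and 0.04 for H2-Ob probe 1, and with normexp 0.01 for H2-Eb1. Leaving out each array, sponge versus control ran from -0.36 to 0.71 for H2-Aa, -0.22 to 0.02 for H2-Ab1 probe 1, -0.31 to 0.24 for H2-Eb1, -0.14 to 0.25 for Cd74, -0.25 to 0.28 for H2-DMa, -0.11 to 0.57 for H2-DMb1, -0.33 to 0.07 for H2-Oa, -0.08 to 0.03 for H2-Ob probe 1 and -0.16 to 0.03 for H2-Ob probe 2, and miR-26a versus control from -0.16 to 0.07 for H2-Eb2. For listed genes that were not called, miR-26a versus control of Cd4 was 0.0 when scaled to the 75th percentile, and over the arrays left out it ran from -0.08 to 0.02 for Cd4 and -0.1 to 0.05 for Cd1d1, and sponge versus control from -0.01 to 0.07 for Rfxank. The cause of these changes was not tested, other than that fewer arrays or more probes entered some fits. Dim signals limit Ciita, H2-Aa and H2-DMb1, and normexp, which raises dim values, gave the smallest difference for H2-Aa (-0.92).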
